A study of Mus musculus with 12 samples.

Results

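BV2 cells, an immortalised mouse microglial line, were incubated for 24 h with extracellular vesicles (EVs) made by other BV2 cultures, and the RNA of the receiving cells was sequenced. The comparison described here sets the 3 libraries of cells that received vesicles named for IL-10 (IL10_EV) against the 3 libraries of cells that received control vesicles (control_EV). These are 6 of the 12 libraries of the series. The other 6 received vesicles named for LPS (LPS_EV, 3 libraries) or TGF-β (TGFB_EV, 3 libraries) and are used where a value of IL10_EV has to be placed. All 4 groups are BV2 cells with no genetic change named in the labels, all were given vesicles for the same time, and the design text states that wells were dosed equally. No group without vesicles is among the samples used here, and the vesicles cannot be told apart from any cytokine that came with them. Of 57010 rows in the count table, 10613 passed the filter on low counts and were compared.

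Interleukin-10 is a cytokine that restrains activated macrophages and microglia. It binds a receptor made of IL10RA and IL10RB chains, whose bound kinases JAK1 and TYK2 phosphorylate STAT3, and STAT3 then switches on genes such as Socs3 that damp inflammatory transcription. Extracellular vesicles are small membrane-bound particles that carry protein and RNA from one cell to another, and microglia both shed them and take them up. The opposite programme in microglia is driven largely by NF-κB, whose products include cytokines, the nitric oxide synthase Nos2 and the acute-phase protein Saa3.

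The gene label of a row in this table is often not the gene whose reads the row holds, because exon positions appear displaced along the chromosome. The gene met was therefore estimated by moving each row's exons by a displacement that is constant over long stretches and was fitted without group labels. Of 7296 placed rows with a mean of at least 5 CPM (counts scaled by TMM to a common library total), 95.5% then met a protein-coding exon, while 16.4% met the gene of their own label. The fit favours displacements at which rows with counts meet coding exons, so the 95.5% is not a check of the gene names. Rows are named below by the label, with the gene met in parentheses as an estimate. For all 47 rows singled out for a small p or for a value that stood apart, the first gene met was the same under both other settings of the estimate, and 5 of them met the gene of their label. Rows of 1 gene count parts of it, so levels are compared between libraries and not between genes.

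Library totals were 10497757, 11963204 and 12053680 counts in control_EV and 13379715, 13183279 and 13647007 in IL10_EV, a difference with an exact two-sided permutation p of 0.1, the smallest that 3 against 3 can give. Labels do not say that replicates came from separate cultures. The p-values therefore set the group difference only against the spread among these samples, and that spread may be technical. Rows meeting 8 of 21 microglia and macrophage markers (Lyz2, Ctss, Fcgr3, Csf1r, Itgam, Ptprc, Spi1 and Aif1) all had at least 5 CPM, with a summed level of 4661 to 4940.1 CPM in control_EV and 4846 to 6475 in IL10_EV, the highest in IL10_EV replicate 2. For neurons, astrocytes and fibroblasts the summed level of the markers met stayed at or below 1.34 CPM in all 6 libraries, and rows meeting Map2, Gad1, Aldh1l1, Col1a2 and Dcn were at 0. Rows meeting single markers of other lists were measured too (Flt1, Cnp, Mbp, Lck and Cdh1), and their part in the results was not tested.

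No row passed the test between IL10_EV and control_EV, and the rows with the smallest p met the acute-phase gene Saa3, higher in every IL10_EV library, and the lectin gene Mgl2, lower in every one. edgeR's quasi-likelihood test called 0 of 10613 rows (0.0%), with 5378 rows higher and 5235 lower in IL10_EV, and the lowest Benjamini-Hochberg adjusted p was 1.0 after rounding. At an unadjusted p under 0.05 there were 334 rows (3.15%), fewer than 1 in 20. DESeq2 called 1 of 22317 rows, and limma's voom with library weights called 0 of 10613, with 532 (5.01%) at an unadjusted p under 0.05. In 936 rows (8.82%) the 2 groups did not overlap, 477 (4.49%) with all IL10_EV libraries above all control_EV libraries and 459 (4.32%) with all below. Counts of 10613 rows were simulated with the same spread in both groups and each row drawn on its own. There 49% of added 1.5-fold changes and 71% of added 2-fold changes were called, so changes of that size can be missed. In the data the spread was wider in IL10_EV than in control_EV, as given below, so these shares need not hold here.

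Saa3 encodes a serum amyloid A protein that macrophages make during the acute-phase response. Levels are given for replicates 1, 2 and 3 in that order. The row labelled LOC102637012 (met Saa3, then Saal1) on chromosome 7 had 118, 192 and 159 CPM in control_EV and 250.2, 1019.7 and 413 CPM in IL10_EV. Every IL10_EV library lay above every control_EV library, but replicate 2 was 2.47 times the highest of the others. The log2 fold change was 1.84 (SE 0.39), 95% interval 0.99 to 2.70, with an unadjusted p of 0.000562 that did not survive adjustment. Without IL10_EV replicate 2 the difference was smaller and its error smaller still, 1.08 (SE 0.16), and the row was then called by edgeR with an adjusted p of 0.0125. The only other row called without that library carried the label Esp16, whose gene could not be estimated. All 3 libraries of LPS_EV, at 263, 874 and 655 CPM, were above all control_EV libraries in the Saa3 row. TGFB_EV had 127, 118 and 79.2 CPM, with 2 libraries inside the control_EV range and 1 below it.

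Mgl2 encodes a C-type lectin that binds galactose and N-acetylgalactosamine and is commonly used as a marker of alternatively activated macrophages. Rows labelled Rnasek and Alox12 on chromosome 11 both met Mgl2 at a displacement of 109.2 kb. They are therefore 2 counts of 1 gene and not independent. The row that carries the label Mgl2 met Dlg4 and went the other way. It had 8.02, 10.7 and 9.58 CPM in control_EV and 12.9, 16.2 and 12.9 CPM in IL10_EV. The log2 fold change of that row was 0.57 (SE 0.17). A lower level of Mgl2 in IL10_EV thus rests on the estimate of the gene met. The Rnasek row had 65.3, 55.1 and 53.9 CPM in control_EV and 40.2, 22.7 and 26.0 CPM in IL10_EV. Its groups did not overlap, and the lowest values were those of IL10_EV replicates 2 and 3. The log2 fold change was -0.97 (SE 0.18), 95% interval -1.36 to -0.58, and it was -0.81 (SE 0.14) without IL10_EV replicate 2, with an edgeR adjusted p of 0.0642. The Alox12 row had 116, 80.3 and 77.3 CPM in control_EV and 76.5, 37.2 and 41.2 CPM in IL10_EV, a log2 fold change of -0.82 (SE 0.24). Here IL10_EV replicate 1 lay just under the lowest control_EV library. DESeq2 called the Rnasek row with an adjusted p of 0.00162, and edgeR called it with a log2 fold change of -1.26 when IL10_EV replicate 1 was left out. The same row had 43.9, 22.4 and 23.6 CPM in LPS_EV and 47.1, 35.6 and 69.5 CPM in TGFB_EV, so that LPS_EV overlapped with IL10_EV and TGFB_EV spanned both groups.

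**Figure D1:**
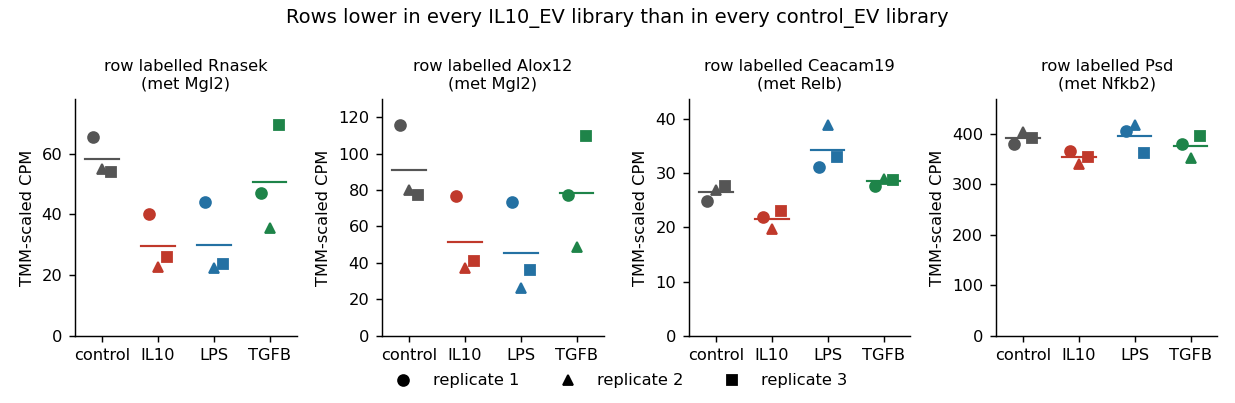
Levels (TMM-scaled CPM, linear axis from 0) of 4 rows in the 12 libraries, by vesicle group; symbols mark replicates 1, 2 and 3 and lines the group means. In all 4 rows the 3 IL10_EV libraries lie below the 3 control_EV libraries, and in the rows that met Mgl2 the LPS_EV libraries overlap with IL10_EV while in the row that met Relb they lie above both groups.

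In the rows of the receptor and signal chain of IL-10 that follow, no difference passed the test. The row labelled Tmprss13 (met Il10ra, the ligand-binding chain) had 48.6, 48.9 and 33.9 CPM in control_EV and 38.8, 70.7 and 37.7 CPM in IL10_EV. Only IL10_EV replicate 2 lay outside the control_EV range, and the log2 fold change of 0.16 (SE 0.22) became -0.19 (SE 0.13) without it. The row labelled Gart (met Il10rb, the shared second chain) had 285, 323 and 306 CPM in control_EV and 296, 293 and 293 CPM in IL10_EV, with an interval of the log2 fold change from -0.20 to 0.09. Both other rows that met Il10rb, labelled Gm15964 and Dnajc28, had log2 fold changes of -0.06 (SE 0.07) and 0.01 (SE 0.07). For the kinases, the row labelled Gm12798 (met Jak1) had a log2 fold change of 0.11 (SE 0.12) and the row labelled Pde4a (met Tyk2) one of -0.02 (SE 0.10). The row labelled Atp6v0a1 (met Stat3, the transcription factor of the pathway) had 56.8, 54.8 and 53.8 CPM in control_EV and 45.7, 67.3 and 62.2 CPM in IL10_EV. IL10_EV replicate 1 was below and replicates 2 and 3 were above all control_EV libraries, and the interval of its log2 fold change ran from -0.20 to 0.36.

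Downstream, the row labelled Dnah17 met Pgs1 first and Socs3, the feedback inhibitor of this pathway, second, so that its reads cannot be assigned to Socs3 alone. It had 85.1, 82.0 and 73.3 CPM in control_EV and 79.8, 93.8 and 74.8 CPM in IL10_EV, with an interval from -0.18 to 0.27. A list of 24 macrophage genes that IL-10 is known to act on had 8 members tested, 2 higher and 6 lower in IL10_EV, none called and 0 at an unadjusted p under 0.05 (3.15% of all rows), with a median log2 fold change of -0.087 beside 0.003 over the 6236 genes met. Its member with the smallest p was the row labelled Mrc1 (met Mrc1, the mannose receptor), at 848, 795 and 798 CPM in control_EV and 825, 693 and 718 CPM in IL10_EV. The row labelled Mum1 (met Sbno2, a corepressor induced by IL-10) had 124, 137 and 117 CPM in control_EV and 117, 121 and 113 CPM in IL10_EV, with overlapping groups. For the receptors that LPS and TGF-β use, the 95% interval of the log2 fold change held 0: it ran from -0.39 to 0.21 for the row labelled Tlr4 (met Tlr4) and from -0.23 to 0.08 for the row labelled Tgfbr1 (met Tgfbr1).

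**Figure D2:**
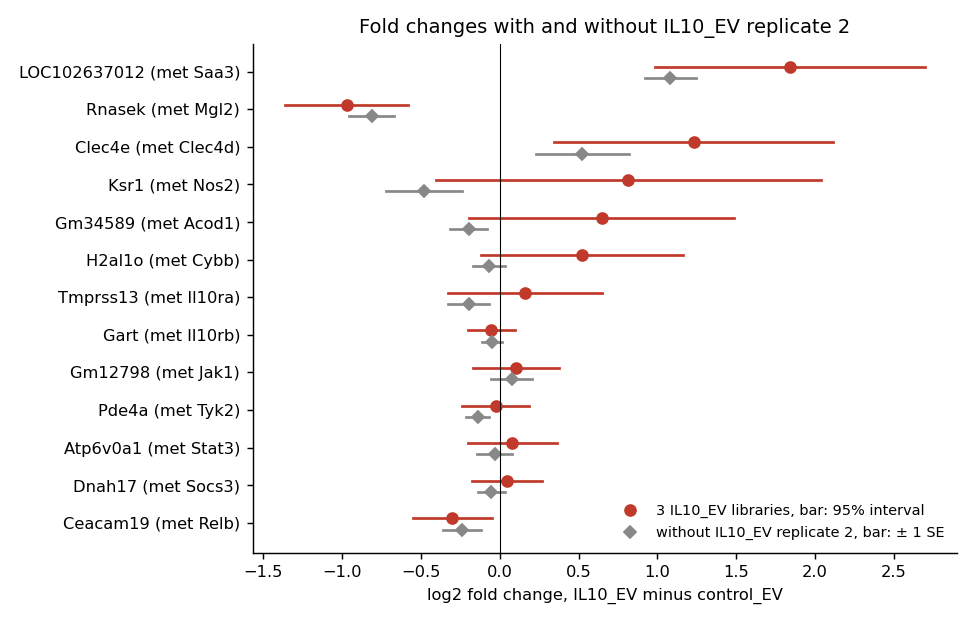
Log2 fold changes of IL10_EV minus control_EV for 13 rows, with all 3 IL10_EV libraries (circles, bars are 95% intervals) and without IL10_EV replicate 2 (diamonds, bars are 1 SE each way). Rows that met Saa3, Mgl2, Clec4d and Relb keep their side of 0 without that library. Rows that met Nos2, Acod1, Cybb, Il10ra and Stat3 change sign, as does the row that met Pgs1 first and Socs3 second. The rows of the IL-10 receptor and its kinases lie between -0.05 and 0.16 with all 3 libraries and between -0.19 and 0.08 without replicate 2.

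The spread within IL10_EV was wider than within any other group, and replicate 2 was the library with the most rows far from the rest. The common biological coefficient of variation was 0.152 in IL10_EV, 0.0779 in control_EV, 0.0753 in LPS_EV and 0.116 in TGFB_EV. Among 7485 rows with a mean of at least 5 CPM, IL10_EV replicate 2 lay more than 1.5-fold above all 5 other libraries in 66 rows (0.882%) and more than 1.5-fold below all of them in 56 (0.748%). Each of the other 5 libraries was that far above the rest in 0 to 2 rows and that far below in 5 to 22. Past 2-fold the counts for replicate 2 were 11 above and 6 below. When the LPS_EV or TGFB_EV libraries were compared with control_EV in the same manner, each of their libraries stood that far above the rest in 1 to 4 rows and that far below in 3 to 30, with the 30 in TGFB_EV replicate 2. In the main comparison limma's voom gave IL10_EV replicate 2 a weight of 0.378 and the other 5 libraries weights of 1.04 to 1.35. Why replicate 2 differs was not tested.

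**Figure D3:**
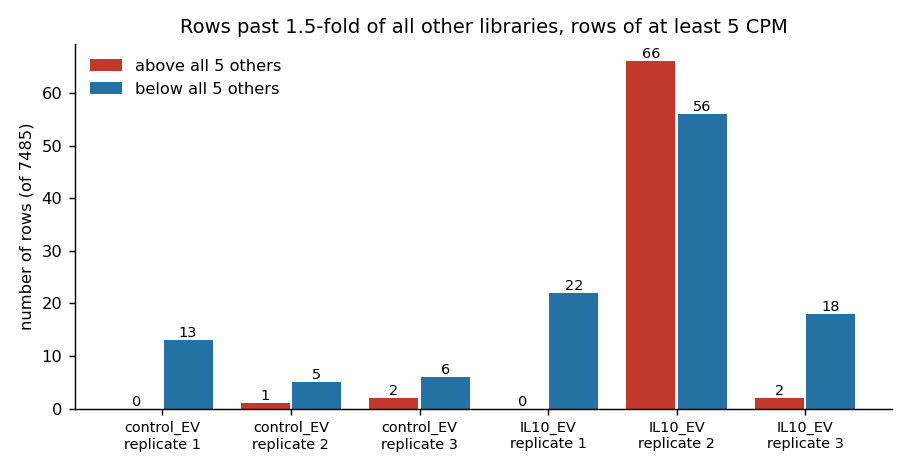
Number of rows, of 7485 with a mean of at least 5 CPM, in which a library lies more than 1.5-fold above (red) or below (blue) all 5 others, for each of the 6 libraries. IL10_EV replicate 2 has 66 rows above and 56 below, and no other library has more than 2 above or 22 below.

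The 12 rows furthest above in IL10_EV replicate 2, among those with a gene name or a coding gene met, are ordered here by the ratio to the highest of the 5 other libraries. The first 5 met Hal (2.65), Clec4d (2.63), Nos2 (2.62), Saa3 (2.47) and Acod1 (2.40). The rest met Mxd1, Cybb, Klhl6, Selenbp1, Timeless and Tnfsf13b, with ratios between 2.21 and 1.85, and the row labelled Cgn met no coding exon. The row labelled Gm15915 (met Hal, histidine ammonia-lyase, which starts the breakdown of histidine) had 9.55, 10.4 and 8.26 CPM in control_EV and 9.53, 27.7 and 9.36 CPM in IL10_EV. IL10_EV replicates 1 and 3 were within the control_EV range. The row labelled Clec4e (met Clec4d, a C-type lectin receptor for mycobacterial glycolipid) had 2.96, 3.51 and 2.89 CPM in control_EV and 4.02, 13.1 and 4.97 CPM in IL10_EV. Unlike the Hal row, all 3 of its IL10_EV libraries were above all control_EV libraries, and the log2 fold change of 1.23 (SE 0.40) was 0.52 (SE 0.30) without replicate 2.

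The row labelled Ksr1 (met Nos2, inducible nitric oxide synthase) had 11.9, 21.2 and 9.99 CPM in control_EV and 10.9, 55.7 and 9.73 CPM in IL10_EV. Control_EV replicate 2 was the highest of its own group as well, and IL10_EV replicates 1 and 3 were close to the lower controls. The log2 fold change was 0.82 (SE 0.56) with all libraries and -0.48 (SE 0.24) without IL10_EV replicate 2, so its sign rests on that library. The row labelled Gm34589 (met Acod1, which makes itaconate in activated macrophages, and then a further gene) had 97.8, 142 and 106 CPM in control_EV and 92.2, 339.97 and 109 CPM in IL10_EV, and its log2 fold change went from 0.65 (SE 0.38) to -0.20 (SE 0.12) without replicate 2. The row labelled H2al1o (met Cybb, the core of the oxidase with which phagocytes make superoxide) had 81.3, 108 and 85.2 CPM in control_EV and 87.6, 219.8 and 87.4 CPM in IL10_EV. In this row the 2 other IL10_EV libraries were inside the control_EV range.

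**Figure D4:**
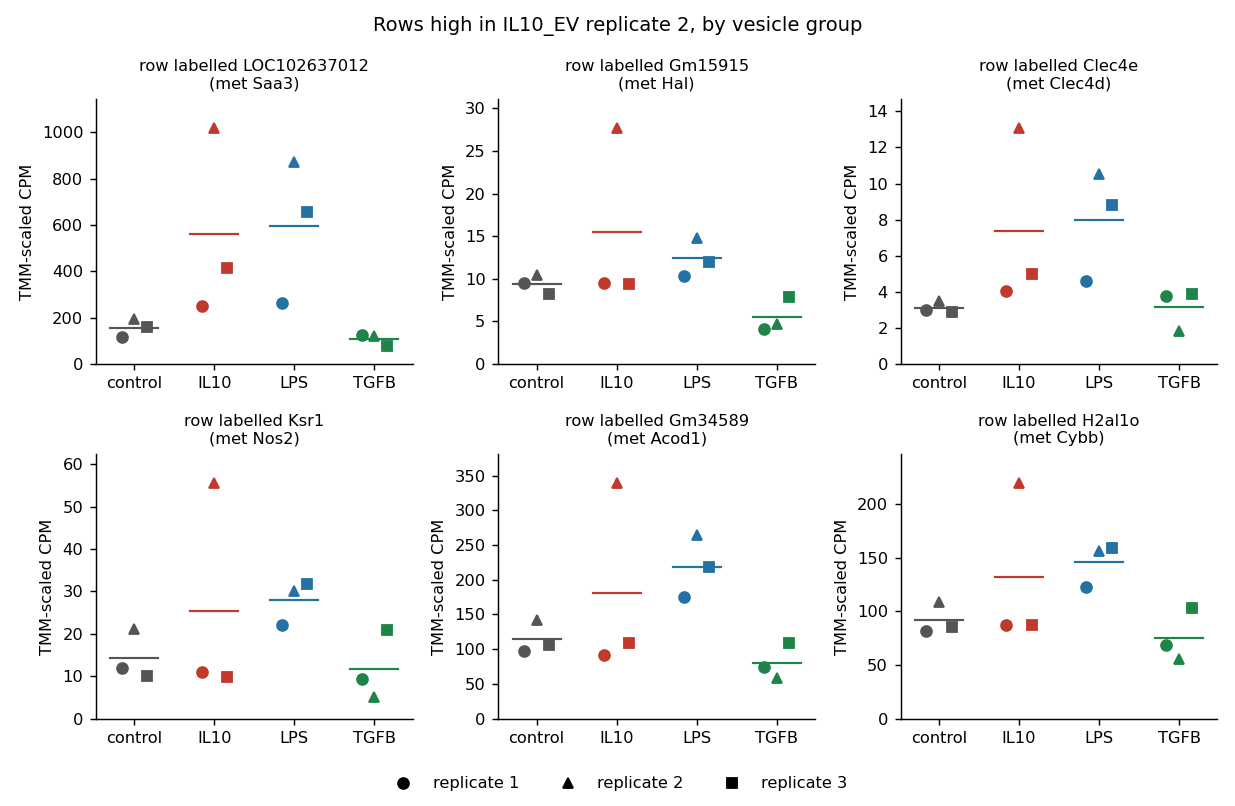
Levels (TMM-scaled CPM, linear axis from 0) of 6 rows that are high in IL10_EV replicate 2, in all 12 libraries by vesicle group; symbols mark replicates and lines the group means. The triangle of IL10_EV replicate 2 is the highest point of every panel, while replicates 1 and 3 exceed all control_EV libraries in the panels that met Saa3 and Clec4d and in no other panel.

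The promoters of the genes met by the rows with the highest ratios are shown because these rows were high together in 1 library. Of 11 such genes, 10 had an entry in the RefSeq promoter table (GRCm38.p6), and the first 4 are printed. Each is the 250 bases before the start site, 5′ to 3′ on the gene's strand, in lower case with matches in capitals. Searched motifs, on both strands, were the STAT site GAS (TTCNNNGAA), the NF-κB site kB (GGG and CC with 5 bases of any kind between) and the interferon element ISRE (GAAA and GAAA with 2 bases of any kind between).
Hal, chr10:93488518-93488767, plus strand: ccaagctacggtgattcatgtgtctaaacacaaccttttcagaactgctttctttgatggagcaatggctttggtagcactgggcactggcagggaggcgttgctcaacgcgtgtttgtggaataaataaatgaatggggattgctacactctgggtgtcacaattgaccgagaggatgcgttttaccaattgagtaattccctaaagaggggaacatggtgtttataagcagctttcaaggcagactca
Clec4d, chr6:123261857-123262106, plus strand: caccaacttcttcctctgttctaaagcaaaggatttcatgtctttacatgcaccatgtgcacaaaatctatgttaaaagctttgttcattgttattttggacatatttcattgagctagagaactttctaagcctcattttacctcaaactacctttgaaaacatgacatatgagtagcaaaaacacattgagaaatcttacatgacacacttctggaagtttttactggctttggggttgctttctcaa
Saa3, chr7:46715677-46715926, minus strand: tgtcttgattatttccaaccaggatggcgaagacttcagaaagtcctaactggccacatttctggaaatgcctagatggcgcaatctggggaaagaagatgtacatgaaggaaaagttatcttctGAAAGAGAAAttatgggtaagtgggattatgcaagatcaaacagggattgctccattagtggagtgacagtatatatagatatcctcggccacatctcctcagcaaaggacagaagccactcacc
Acod1, chr14:103046762-103047011, plus strand: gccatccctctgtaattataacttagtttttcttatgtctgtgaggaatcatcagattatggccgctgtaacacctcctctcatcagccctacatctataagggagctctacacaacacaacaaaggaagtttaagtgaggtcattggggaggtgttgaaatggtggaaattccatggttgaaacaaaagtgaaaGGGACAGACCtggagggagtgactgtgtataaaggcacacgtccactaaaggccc
The Saa3 window held 1 ISRE match, starting 125 bases before the start site, and the Acod1 window held 1 kB match, starting 55 bases before it. Windows of Hal and Clec4d held none of the 3. Among 32851 promoter windows of the same length, 7.0% held a GAS match, 45.8% a kB match and 3.0% an ISRE match. None of the 4 windows held a GAS match, which says only that these letters are not in these windows.

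By the same rule, the rows furthest below in IL10_EV replicate 2 met Avil in 2 cases, and Atp2a3, Osbp2, Sh2d6, Cdsn, Slc19a2, Igfbp6 and Perm1 among others. The row labelled Slc26a10 (met Avil, which encodes the actin-binding protein advillin) had 9.26, 9.51 and 21.2 CPM in control_EV and 16.98, 1.47 and 32.5 CPM in IL10_EV. The row labelled B4galnt1 met Avil as well, with 5.59, 1.16 and 8.99 CPM in IL10_EV and 5.06, 4.28 and 9.497 CPM in control_EV. These libraries varied within both groups, and IL10_EV replicate 3 had the highest Slc26a10 level where replicate 2 had the lowest. The row labelled Ncbp3 (met Atp2a3, a calcium pump of the endoplasmic reticulum) had 17.4, 17.6 and 19.7 CPM in control_EV and 17.3, 6.97 and 22.1 CPM in IL10_EV. The row labelled Rarg (met Igfbp6, then Soat2) had 169.7, 169.8 and 190.3 CPM in control_EV and 179, 90.1 and 178 CPM in IL10_EV. In both, replicates 1 and 3 were close to control_EV and replicate 2 stood at 0.403 and 0.531 of the lowest other library.

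The gene lists described here were chosen with earlier results of these data known, so their counts describe these libraries and support nothing further. Across the 17 inflammatory and NF-κB genes tested, 12 were higher and 5 lower in IL10_EV, 0 were called, and 7 had an unadjusted p under 0.05, where 334 of all 10613 rows (3.15%) had one. The median log2 fold change was 0.202. By library, the median of log2 level over the control_EV mean was -0.022, 0.378 and -0.068 in IL10_EV replicates 1, 2 and 3, beside -0.079 to 0.072 in control_EV. The list was thus above the control_EV range in replicate 2 and no other IL10_EV library. In LPS_EV the medians were 0.299, 0.546 and 0.354, and in TGFB_EV -0.088, -0.253 and 0.006. In 12 of 17 members replicate 2 was the highest of the 6 libraries, against 1979 of all 7485 rows with at least 5 CPM (26.4%).

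Cytokine, chemokine, complement and lectin members of the list were also highest in replicate 2. The row labelled F830045P16Rik (met Il1a, interleukin-1α) had 33.1, 32.4 and 35.2 CPM in control_EV and 36.9, 68.8 and 46.5 CPM in IL10_EV, all 3 above control_EV. Its log2 fold change was 0.59 (SE 0.18), and 0.31 (SE 0.11) without replicate 2. The row labelled Mllt1 (met C3, the central complement protein) had 313, 350.3 and 329 CPM in control_EV and 365, 503 and 345 CPM in IL10_EV, where replicates 1 and 2 lay above the control_EV range and replicate 3 inside it. The row labelled Heatr6 met the chemokine genes Ccl3 and Ccl4 together, with 358, 415 and 403 CPM in control_EV and 395, 508 and 450.5 CPM in IL10_EV. The row labelled Vmn2r19 (met Clec4e, then Vmn2r19) had 4.11, 6.25 and 4.54 CPM in control_EV and 6.78, 9.91 and 5.63 CPM in IL10_EV.

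Subunits of the non-canonical NF-κB pathway lay on the other side. The row labelled Ceacam19 (met Relb) had 24.9, 26.9 and 27.7 CPM in control_EV and 22.0, 19.7 and 22.96 CPM in IL10_EV. The row labelled Psd (met Nfkb2, then Psd; Nfkb2 encodes RELB's usual partner) had 380.2, 403 and 392.2 CPM in control_EV and 366, 339 and 355 CPM in IL10_EV. In both rows all 3 IL10_EV libraries were below all control_EV libraries, with log2 fold changes of -0.30 (SE 0.11) and -0.15 (SE 0.06) that were not called. Replicate 2, the library with the highest Saa3 and Nos2, had the lowest level of both. By contrast the row labelled Slc39a8 (met Nfkb1, then Manba) had a log2 fold change of -0.06 (SE 0.07).

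Interferon and cholesterol genes were above the control_EV mean on balance. All 9 interferon genes tested had a positive log2 fold change, with a median of 0.343 and 2 at an unadjusted p under 0.05, beside 3.15% of all rows. Their medians by library were 0.134, 0.57 and 0.182 in IL10_EV and -0.093 to 0.079 in control_EV, and all 3 IL10_EV medians were above the control_EV ones. So were all 3 LPS_EV medians, at 0.23, 0.567 and 0.52, while TGFB_EV had -0.068, -0.062 and 0.292. The row labelled Git2 (met Oasl2, an oligoadenylate synthetase-like protein) had 37.3, 41.8 and 43.3 CPM in control_EV and 44.8, 63.04 and 47.6 CPM in IL10_EV. The row labelled Ddx58 (met Ddx58, the RNA sensor RIG-I) had 26.9, 27.3 and 22.1 CPM in control_EV and 29.3, 37.3 and 29.0 CPM in IL10_EV. In both rows the groups did not overlap.

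All 7 cholesterol genes tested were also higher, with a median log2 fold change of 0.12 and 0 at an unadjusted p under 0.05, beside 3.15% of all rows. Here the medians by library were -0.075, 0.49 and 0.05, so that replicates 1 and 3 were inside the control_EV range of -0.13 to 0.083. The row labelled Col6a1 (met Lss, lanosterol synthase) had 66.3, 70.6 and 56.7 CPM in control_EV and 61.1, 107 and 71.4 CPM in IL10_EV.

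Glycolysis genes differed between libraries of both groups. Of 11 tested, 6 were higher and 5 lower, 0 had an unadjusted p under 0.05 (3.15% of all rows did), and the median log2 fold change was 0.024. Library medians were -0.137, 0.305 and -0.277 in IL10_EV and -0.036, 0.147 and -0.147 in control_EV, and control_EV replicate 2 was the highest of the controls in 9 of the 11. The row labelled Ybx1 (met Slc2a1, the glucose transporter GLUT1) had 136, 186 and 125 CPM in control_EV and 114, 208 and 106 CPM in IL10_EV. The row labelled D10Jhu81e (met Pfkl, a phosphofructokinase subunit) had 71.5, 85.6 and 62.1 CPM in control_EV and 66.4, 111 and 52.4 CPM in IL10_EV. Both rows were highest in replicate 2 of each group and lowest in IL10_EV replicate 3.

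The unfolded protein response was the list with the lowest median in replicate 2 after the alternative activation genes. Its 7 members had library medians of 0.028, -0.257 and 0.03 in IL10_EV, beside -0.036 to 0.032 in control_EV, and replicate 2 was the lowest of the 6 libraries in 6 of the 7, against 27.2% of all rows with at least 5 CPM. The row labelled Cutal (met Hspa5, the endoplasmic reticulum chaperone BiP, then Rabepk) had 1049.7, 1048 and 1202 CPM in control_EV and 1121, 650.5 and 1308 CPM in IL10_EV. The row labelled Ankrd36 (met Xbp1 first, a transcription factor of this response) had 187, 179 and 189 CPM in control_EV and 159.9, 159 and 172 CPM in IL10_EV, all 3 below control_EV, with a log2 fold change of -0.18 (SE 0.07).

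Of 4 alternative activation genes tested, 3 were lower and 1 was higher in IL10_EV, with a median log2 fold change of -0.174. Beside Mgl2 and Mrc1 above, the row labelled Klf4 (met Klf4, a transcription factor of this state) had 304, 342 and 317 CPM in control_EV and 292, 230.2 and 304 CPM in IL10_EV, where replicate 2 was the lowest of the 6 libraries. Of 7 cell cycle genes tested, 5 were higher, with a median of 0.206 and library medians of 0.141, 0.096 and 0.281. The row labelled Klf11 (met Rrm2, a ribonucleotide reductase subunit) had 15.7, 14.4 and 14.9 CPM in control_EV and 18.02, 27.03 and 18.6 CPM in IL10_EV, and the row labelled Gm6818 (met Ccne1, cyclin E1) had 37.6, 42.6 and 35.3 CPM in control_EV and 42.8, 49.3 and 46.9 CPM in IL10_EV. In both, all IL10_EV libraries were above all control_EV libraries.

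**Figure D5:**
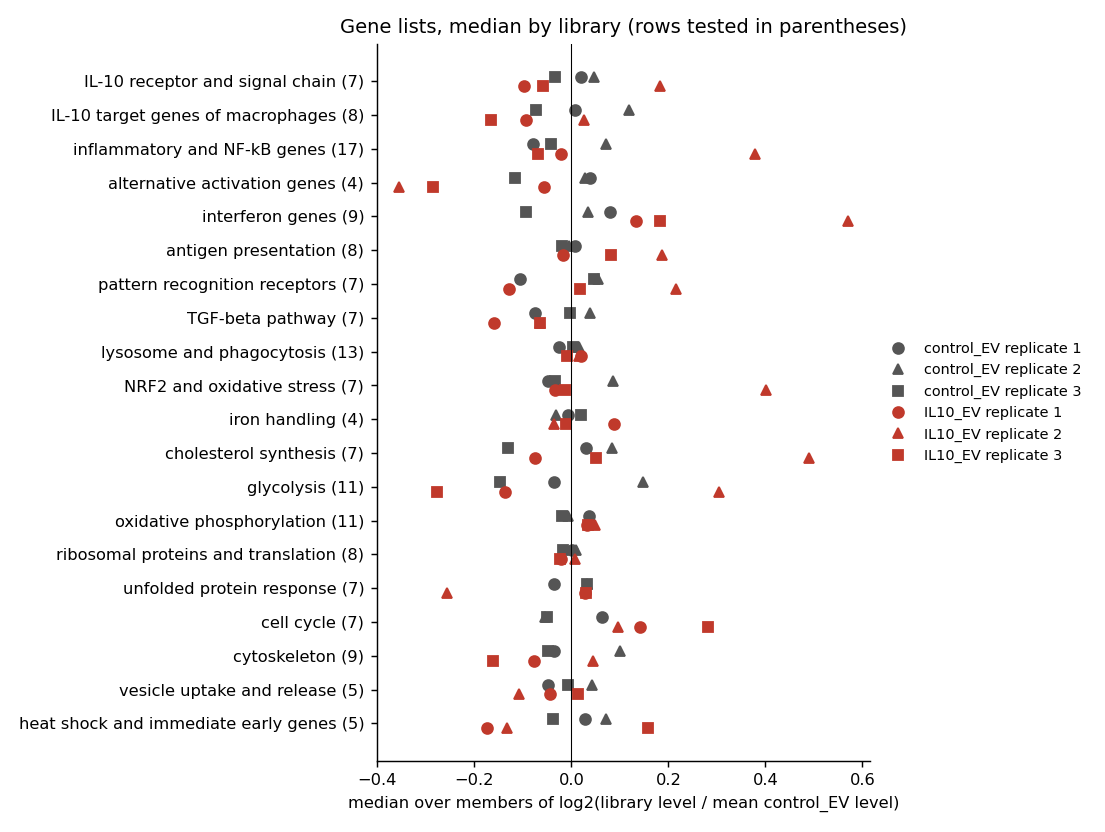
Median over the tested members of each gene list of log2(library level over the control_EV mean), for the 3 control_EV (grey) and 3 IL10_EV (red) libraries, with the number of rows tested in parentheses. IL10_EV replicate 2 (red triangles) lies to the right of all other libraries for inflammatory, interferon, cholesterol, glycolysis and NRF2 genes, among others, and to the left for unfolded protein response genes, while oxidative phosphorylation and ribosomal protein lists stay within 0.05 of 0.

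Lists of basic cell functions had medians near 0. Oxidative phosphorylation genes had 8 of 11 members higher with a median log2 fold change of 0.06, and 8 genes of ribosomal proteins and translation had 4 higher and 4 lower with a median of -0.012. The row labelled Pabpc1 (met Pabpc1, the poly(A)-binding protein) had 19468, 21028 and 20459 CPM in control_EV and 19910.00, 20915 and 20443 CPM in IL10_EV. In this class IL10_EV replicate 1 was the lowest library of the comparison in rows such as those labelled Gm20681 (met Rpl13) and Lman1l (met Cox5a). The Gm20681 row had 2381, 3423 and 3518 CPM in IL10_EV and 3684, 3623 and 3545 in control_EV. TGFB_EV had 2379, 1895 and 3308.5 CPM there. The Lman1l row had 53.2, 109.7 and 107 CPM in IL10_EV and 111, 95.3 and 106 in control_EV, beside 49.0, 43.7 and 82.9 in TGFB_EV. Lysosome and phagocytosis genes had 8 of 13 members higher, a median of 0.014 and library medians of 0.019, 0.016 and -0.01 in IL10_EV. They had 1 member at an unadjusted p under 0.05, beside 3.15% of all rows, the row labelled Atp6v0d2 (met Atp6v0d2, a proton pump subunit), with 922, 920.01 and 956 CPM in control_EV and 902, 806 and 709 CPM in IL10_EV. The 5 genes of vesicle uptake and release tested had a median of -0.02, with library medians of -0.045, -0.108 and 0.013 in IL10_EV.

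Among the remaining lists, 3 were above all control_EV medians in replicate 2. NRF2 and oxidative stress genes had 4 of 7 higher with a median log2 fold change of 0.054, and library medians of -0.034, 0.401 and -0.014 in IL10_EV replicates 1, 2 and 3 beside -0.048 to 0.085 in control_EV. Pattern recognition receptors had 3 of 7 higher with a median of -0.08, and library medians of -0.129, 0.215 and 0.017 beside -0.106 to 0.054. Antigen presentation genes had 7 of 8 higher with a median of 0.073, and library medians of -0.018, 0.186 and 0.082 beside -0.019 to 0.007. For these lists the median log2 fold change over the group thus lies below the median of replicate 2, and only antigen presentation had replicate 3 above control_EV as well. TGF-β pathway genes had 3 of 7 higher (median -0.077) with library medians of -0.159, -0.064 and -0.065 in IL10_EV. Cytoskeleton genes had 3 of 9 higher (median -0.095) with library medians of -0.078, 0.045 and -0.162. Iron genes had 3 of 4 higher (median 0.003) with library medians of 0.087, -0.035 and -0.011. All 5 heat shock and immediate early genes had negative log2 fold changes, between -0.06 and 0 after rounding, with library medians of -0.174, -0.132 and 0.158. In these 7 lists 0 members were called.

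The 12 higher and 12 lower rows with the smallest p were taken among rows with a mean of at least 5 CPM and a gene name or a coding gene met. The groups did not overlap in any of these 24 rows, against 8.82% of all rows without overlap, and nothing is read from this because the rows were chosen by p in the same comparison. The row labelled Slc7a11 (met Slc7a11, the cystine-glutamate antiporter) had 48.0, 56.5 and 50.5 CPM in control_EV and 61.1, 91.2 and 62.4 CPM in IL10_EV, a log2 fold change of 0.47 (SE 0.15). The row labelled Tfcp2 (met Slc11a2, the iron importer DMT1, then Gm5475) had 111, 123.1 and 116 CPM in control_EV and 131, 157 and 145 CPM in IL10_EV. The row labelled A630010A05Rik (met Abcc1, an export pump) had 48.0, 45.7 and 45.4 CPM in control_EV and 52.7, 64.3 and 57.9 CPM in IL10_EV. Replicate 2 was the highest library in each of these 3 rows, and in 9 of the 12 higher rows with the smallest p. The rest of those 12 met Zranb3, Birc6, Fgfr1op, Dlg4, Dhdds, Oaf and Sf3b3, with log2 fold changes between 0.26 and 0.59.

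On the lower side, the row labelled Cd72 (met Cd72, an inhibitory receptor, then Tesk1) had 186, 193 and 170.4 CPM in control_EV and 149.9, 152 and 131 CPM in IL10_EV. This difference did not rest on replicate 2: the log2 fold change was -0.34 (SE 0.08) with it and -0.38 (SE 0.08) without it. The row labelled Filip1l (met Tbc1d23, a protein of endosome-to-Golgi transport) had 904, 768 and 729 CPM in control_EV and 374, 659.9 and 608 CPM in IL10_EV, where replicate 1 was the lowest. The row labelled Frmpd1 (met Frmpd1) had 11.7, 8.91 and 8.26 CPM in control_EV and 6.41, 4.10 and 3.44 CPM in IL10_EV, a log2 fold change of -1.04 (SE 0.25) at a low level. The row labelled Mlc1 (met Pim3, a serine/threonine kinase) had 79.8, 64.3 and 57.0 CPM in control_EV and 46.3, 53.1 and 50.8 CPM in IL10_EV. The rest of the 12 lower rows with the smallest p met Tmcc2, Raph1, Gpr157, Rae1, Mef2a and Naif1, with log2 fold changes between -0.62 and -0.29.

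IL10_EV was then set against the other vesicle groups directly, in 1 fit of all 12 libraries. Against LPS_EV edgeR called 0 of 11267 rows (0.0%) and DESeq2 called 1 of 24860. At an unadjusted p under 0.05 edgeR had 634 (5.63%). The row DESeq2 called was labelled Ceacam19 (met Relb), at 31.1, 39.0 and 33.0 CPM in LPS_EV and 22.0, 19.7 and 22.96 CPM in IL10_EV, with no overlap. Its log2 difference, IL10_EV minus LPS_EV, was -0.67 (SE 0.11), 95% interval -0.90 to -0.45, with an adjusted p of 0.0944 by edgeR and 0.00218 by DESeq2. The Relb row was thus above control_EV in LPS_EV and below it in IL10_EV. Without IL10_EV replicate 2, edgeR called 3 rows, among them Gm34589 (met Acod1), at a log2 difference of -1.12. For that row LPS_EV had 175, 264 and 218 CPM. The Saa3 row, at similar levels in both groups, was not among the 6 rows with the smallest p.

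Against TGFB_EV edgeR called 0 of 11267 rows (0.0%) and DESeq2 called 11 of 11834, with 8 of the 11 higher in IL10_EV. At an unadjusted p under 0.05 edgeR had 842 (7.47%). The Saa3 row had the largest difference of the 6 rows with the smallest p, 2.38 (SE 0.43) on the log2 scale, with an edgeR adjusted p of 0.162, and without IL10_EV replicate 1 it was called with a log2 difference of 2.72 and an adjusted p of 0.0239. The row labelled Flnc (met Flnc, an actin crosslinker) had 2987, 2916 and 2709.6 CPM in TGFB_EV, 2417, 2024 and 2459 CPM in IL10_EV and 2513, 2584 and 2634 CPM in control_EV. Every TGFB_EV library was above every IL10_EV library, with a log2 difference of -0.32 (SE 0.06), IL10_EV minus TGFB_EV. The row labelled Gm37625 (met Zranb3, a replication-fork helicase) had 27.3, 25.2 and 34.0 CPM in TGFB_EV and 37.9, 57.4 and 46.1 CPM in IL10_EV, a log2 difference of 0.71 (SE 0.14).

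Since LPS_EV and IL10_EV share their control libraries, their values are given side by side with no test of likeness. The LPS_EV libraries were above all control_EV libraries in the rows that met Saa3, Clec4d, Nos2, Acod1 and Cybb. In that order, edgeR's log2 fold changes of LPS_EV against control_EV were 1.94 (SE 0.23), 1.35 (SE 0.27), 0.96 (SE 0.19), 0.93 (SE 0.11) and 0.67 (SE 0.09). In IL10_EV replicates 1 and 3, by contrast, the Nos2, Acod1 and Cybb rows stood at 10.9 and 9.73, 92.2 and 109 and 87.6 and 87.4 CPM, within or near the control_EV range, and below all LPS_EV libraries. For Saa3, IL10_EV replicate 1 was just below the lowest LPS_EV library and replicate 2 was above all of them.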

How the data were processed

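RNA of BV2 cells was sequenced in 12 libraries, 4 groups of 3, taken from the sample titles; 6 enter the main comparison. Per the labels' protocols, cDNA was made with SMART-Seq v4 and libraries with Nextera XT, kits that do not mark strand, so sense and antisense genes share reads. The deposited values are raw counts of reads, 1 row for each Ensembl gene of the mouse, and the control_EV columns recur in every table. DESeq2 is the one tool named per the submitters' processing notes; aligner, counter, build and annotation: not given in the sources used here. Library totals ran from 10497757 to 13647007 counts, so 3 counts are 0.219 to 0.286 CPM; reads carry no molecular identifiers, so such limits cover counting error only. Of the row IDs 52029 matched a symbol, and rows without one held 1.81% of counts.

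Differences were tested by edgeR 4.0.16 (R 4.3.3) with TMM factors and rows kept by filterByExpr at a minimum count of 10. Its quasi-likelihood test was used with p adjusted after Benjamini and Hochberg and a threshold of 0.05, over only the 6 libraries of the pair for control_EV and over all 12 libraries for LPS_EV and TGFB_EV. Levels are TMM-scaled CPM over the 12 libraries. The test was checked on counts simulated with the same spread in both groups (6 false calls among 126). Alternatives were DESeq2 1.42.0, limma 3.58.1 voom with library weights, other filters and scalings, a replicate block, sums by gene met, and leaving out each library.

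For row identity, exons of GENCODE M21 (GRCm38) were moved in steps of 100 bases, up to 1000 kb (on X from 1900 kb below to 500 kb above), and the displacement of each stretch was fitted to the rows' levels at a cost of 15 whenever it changed. Of 114 stretches, 94 were supported by a score of at least 5 over the next best, and 96.2% of placed rows lay in them; 90.7% of rows of at least 5 CPM met the same first gene at penalties of 20 and 10. On displacements simulated for chromosomes 3, 11 and 17, with 3 long stretches each, 99.4% to 100.0% of rows of at least 5 CPM met the right first gene. Levels there were drawn from the classes that the fit assumes, so these shares need not hold for the real rows. These settings were chosen after the data were seen. Named rows were the 12 higher and 12 lower with the smallest p, the 12 with the largest and 12 with the smallest ratio of IL10_EV replicate 2 to the other 5 libraries (mean of at least 5 CPM, a gene name or gene met), the IL-10 pathway and receptor rows, up to 6 members per list by p, and 6 rows per further pair. Members and the 20 gene lists were chosen with earlier results of these data known. Promoters are from RefSeq (GRCm38.p6). A few rows and genes are not reported here.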

Additional observations from a re-analysis of the deposited data

How the results depend on the processing

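The count of rows called in IL10_EV against control_EV was 0 under DESeq2 size factors, a strict filter, all 12 libraries, robust dispersion, voom and sums by gene met. It was 1 of 22317 with DESeq2, 22 of 22317 with no low-count filter (15 higher) and 3 of 10613 with the replicate block. When each library was left out it was 0 to 2: 1 without IL10_EV replicate 1 (the Rnasek row) and 2 without IL10_EV replicate 2 (the rows labelled LOC102637012 and Esp16). In the unfiltered fit the SE of the LOC102637012 row was 0.08, against 0.39; the cause was not tested. The count against LPS_EV was 1 with DESeq2, and 0 to 3 over the leave-one-out fits, with 3 without IL10_EV replicate 2. The count against TGFB_EV was 11 with DESeq2 and 0 to 1 over the leave-one-out fits, with 1 without IL10_EV replicate 1. A fit that leaves out a library keeps 2 in that group.

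The replicate numbers are not stated to be shared cultures, so they were not taken as pairs. Same-numbered libraries of the 2 groups had correlations of their deviations of -0.014, 0.234 and 0.27. IL10_EV replicates 2 and 3 correlated best with their own number, and replicate 1 with control_EV replicate 3 (0.119). Deviations from a group's own mean are not independent, so these values cannot decide whether the numbers were shared. The replicate block moved the count from 0 to 3, the rows labelled LOC102637012 (1.63), Rnasek (-1.0) and Alox12 (-0.86), and left both counts against LPS_EV and TGFB_EV at 0.

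Direction changed in 15 of the fits of named rows, spread over 9 rows, all at log2 fold changes that were not called. Without IL10_EV replicate 2 the values were -0.48 for Ksr1 (met Nos2), -0.20 for Gm34589 (met Acod1), -0.07 for H2al1o (met Cybb), -0.19 for Tmprss13 (met Il10ra), -0.03 for Atp6v0a1 (met Stat3), -0.05 for Dnah17 (met Pgs1, Socs3) and 0.02 for Tlr4. With voom they were -0.07 for Ksr1, -0.03 for Atp6v0a1 and -0.05 for Tmprss13. Pde4a (met Tyk2) had 0.01 and 0.05 without IL10_EV replicates 1 and 3, Dnah17 had -0.01 without control_EV replicate 3, and Dnajc28 (met Il10rb) had -0.01 and -0.02 without control_EV replicate 1 and IL10_EV replicate 1. Leaving out each library gave ranges of -0.48 to 1.21 for Ksr1, -0.20 to 0.96 for Gm34589, -0.07 to 0.74 for H2al1o, -0.19 to 0.32 for Tmprss13, -0.03 to 0.23 for Atp6v0a1, -0.05 to 0.11 for Dnah17, -0.17 to 0.02 for Tlr4, -0.14 to 0.05 for Pde4a and -0.02 to 0.03 for Dnajc28. With penalties of 20 and 10 for the row identity, chosen after seeing the data, a coding exon was met by 95.1% and 96.5% of the rows. The number of counts limits what rows near 3 counts can show; what limits the calls in the other rows was not tested.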

Other observations

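IL10_EV replicate 1 also stood low in some rows of this comparison, chosen here after their values were seen. In 22 of 7485 rows with at least 5 CPM it was more than 1.5-fold below all 5 other libraries of the comparison, and the genes met had varied functions: Camk1 (a calcium/calmodulin-dependent kinase), Ppp3r1 (the regulatory subunit of calcineurin), Cox5a and Cyc1 (respiratory chain subunits), Gnb2 (a G protein subunit) and Tbc1d23. The row labelled Tada3 (met Camk1) had 101.2, 86.2 and 90.7 CPM in control_EV and 40.6, 85.5 and 90.6 CPM in IL10_EV. The row labelled Lman1l (met Cox5a) had 111, 95.3 and 106 CPM in control_EV and 53.2, 109.7 and 107 CPM in IL10_EV. The row labelled Gm17112 (met Gnb2) had 93.9, 79.4 and 81.3 CPM in control_EV and 45.9, 72.0 and 81.6 CPM in IL10_EV. In each of them replicates 2 and 3 stood near or inside the control_EV range.

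The same 22 rows were then read in the LPS_EV and TGFB_EV libraries, which had no part in choosing them. TGFB_EV replicates 1 and 2 were below all control_EV libraries in 21 and 22 of the 22, where over all 7485 rows the shares were 27.6% and 31.3%. TGFB_EV replicate 3 was below in 18 of the 22, where the share over all 7485 rows was 23.3%. LPS_EV replicates 1, 2 and 3 were below in 0, 5 and 7 (0.0%, 22.7% and 31.8%). Their shares over all 7485 rows were 30.4%, 27.2% and 31.5%. The Camk1 row had 40.1, 33.6 and 69.3 CPM in TGFB_EV and 107, 89.7 and 89.1 CPM in LPS_EV. The Cox5a row had 49.0, 43.7 and 82.9 CPM in TGFB_EV and 118.9, 104 and 102 CPM in LPS_EV. In both rows TGFB_EV replicates 1 and 2 were close to IL10_EV replicate 1, with TGFB_EV replicate 3 between them and control_EV, and the control_EV libraries are shared by every such count. What these libraries have in common was not tested.

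The row labelled Slc26a10 (met Avil), lowest in IL10_EV replicate 2, had 38.02, 56.5 and 10.7 CPM in TGFB_EV and 5.68, 11.05 and 7.17 CPM in LPS_EV, so that its 12 values ran from the lowest in IL10_EV replicate 2 to the highest in TGFB_EV replicate 2.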
